A study of Homo sapiens with 36 samples.

Results

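The genes described here are the cyclin-dependent kinase (CDK) inhibitors CDKN1A, CDKN1B, CDKN1C, CDKN2A, CDKN2B, CDKN2C and CDKN2D, together with MTAP, the neighbour of CDKN2A on chromosome band 9p21. They are 8 of the 35490 genes to which deposited transcripts could be matched. They were chosen by name after the level of CDKN2A had been seen to differ between a pair of acute myeloid leukaemia (AML) cell lines, at 0 in MOLM-13 and high in MONO-MAC-6. Levels between the lines are therefore a description and carry no test, whereas the response to treatment was tested.

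MOLM-13 and MONO-MAC-6 are established human AML lines of monocytic character, both labelled wild type (WT). Cells of each line received either the vehicle DMSO or A9, a proteolysis-targeting chimera (PROTAC), which is a molecule that brings a protein to the cell's degradation machinery. A9 was given at 0.125 µM to MOLM-13 and at 0.25 µM to MONO-MAC-6, and RNA was taken after 72 h, so a difference between the lines and a difference in dose cannot be told apart. The series' design text names IKK2 and NR4A1 as the proteins degraded, and its title names IKK1 and NR4A1. Polyadenylated RNA was sequenced, and the deposited values are TPM of single transcripts, a unit that expresses each transcript as a part of its library after correcting for transcript length. Each of the 4 groups (MOLM-13 DMSO, MOLM-13 A9, MONO-MAC-6 DMSO and MONO-MAC-6 A9) holds 9 libraries with a pair of numbers each, while the design states 3 samples, and the 3 libraries that share the first number were averaged into 1 sample. Nothing in the labels says that the 3 samples of a group were separate cultures, so p-values measure the spread between these samples only, which may be technical. A TPM table holds no counts, so the depth behind each value is unknown.

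CDK inhibitors stop the kinases that drive a cell through its division cycle. The INK4 proteins, encoded by CDKN2A, CDKN2B, CDKN2C and CDKN2D, bind CDK4 and CDK6 and keep them from pairing with D-type cyclins, which leaves the retinoblastoma protein RB1 active as a brake on E2F transcription factors. The CIP/KIP proteins, encoded by CDKN1A, CDKN1B and CDKN1C, bind complexes of cyclins with CDKs more broadly, and CDKN1A is a classical target of the p53 protein. MTAP encodes methylthioadenosine phosphorylase, an enzyme of methionine and adenine salvage that is often lost together with CDKN2A when 9p21 is deleted in cancers. DNA was not measured here.

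CDKN2A makes unrelated proteins from a shared second exon, because transcripts that begin at different first exons read that exon in different frames. In the GENCODE 29 annotation of GRCh38, CDKN2A lies on the minus strand at chr9:21967753-21995301. The sequences below are shown because they separate the products that the transcript values measure: the 24 bases before the junction are in lower case and belong to the first exon, and the 24 bases after it, in capitals, belong to the second exon.
CDKN2A-201: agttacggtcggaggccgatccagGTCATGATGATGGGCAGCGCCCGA
CDKN2A-214: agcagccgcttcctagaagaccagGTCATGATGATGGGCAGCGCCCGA
The first exon of CDKN2A-201, the form that encodes the CDK inhibitor p16INK4a, ends at 21974678, and the first exon of CDKN2A-214, the form that encodes the p53 regulator p14ARF, ends at 21994139. Both join 21971208, and the capitals are identical. CDKN2A-201 has 0 bases of an unfinished codon before the junction and a coding length of 468 bases, while CDKN2A-214 carries 1 base of an unfinished codon into the second exon and has a coding length of 396 bases.

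MTAP lies on the plus strand at chr9:21802543-21937651 and has transcripts that leave its seventh exon for different last exons. The junctions are shown because the lines differed in how much of each they held, with lower case for the 24 bases before the junction and capitals for the 24 bases of the last exon.
MTAP-214: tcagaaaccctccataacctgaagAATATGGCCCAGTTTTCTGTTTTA
MTAP-210: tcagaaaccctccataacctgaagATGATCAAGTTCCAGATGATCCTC
Both transcripts leave the gene's seventh exon at 21859425. MTAP-214, with a coding length of 849 bases, continues at 21861976, and MTAP-210, with a coding length of 1002 bases, continues at 21931008 near the far end of the gene.

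One sample stood apart in the comparison of A9 with DMSO, by its effect on the number of calls and by the level of a member. In MONO-MAC-6, leaving out DMSO sample 1 raised the number of genes that limma called changed by A9 from 433 to 3205, and MTAP was 24.3 TPM in that sample against 40.8 and 43.7 TPM in the other DMSO samples. The A9 difference of each of the 8 genes in MONO-MAC-6 is given with and without it. Since its effect on the calls singled it out, a gene that passes only without that sample has no independent support. The median log2 difference of all genes tested was 0.16 in MONO-MAC-6 with every sample, and 0.027 without DMSO sample 1, so differences in that line are set against this shift. Of the 12 monocytic and myeloid marker genes, 10 passed the filter on low values in MOLM-13 and 11 did in MONO-MAC-6, while the T cell marker CD3E, the B cell marker MS4A1, the red cell marker HBB and the epithelial marker KRT19 were listed at 0 in every sample.

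CDKN2A was the member that separated the lines most. It was listed at 0 TPM in all 18 libraries of MOLM-13. In MONO-MAC-6 it measured 653, 528 and 568 TPM with DMSO and 558, 512 and 531 TPM with A9, the highest level of any member in that line. The ranges of the DMSO and A9 samples of MONO-MAC-6 overlapped. In bulk RNA, fewer cells that express a gene and less of its RNA in each cell cannot be told apart. No fold between the lines is given for CDKN2A, since a listed 0 can be a failed estimate, although genes that every cell uses had high values in the same libraries (the ribosomal protein gene RPS6 averaged 3738 TPM in MOLM-13 with DMSO).

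CDKN2B, the neighbouring INK4 gene (minus strand, chr9:22002903-22009363), encodes p15INK4b, which is known as a mediator of arrest by transforming growth factor beta. In MOLM-13 it was listed at 0 in 17 of 18 libraries, and the single exception, a DMSO library, held 0.0210 TPM. The MONO-MAC-6 values were 0.826, 1.77 and 2.20 TPM with DMSO and 1.66, 1.48 and 1.39 TPM with A9. The lines did not overlap, yet CDKN2B was the lowest member in MONO-MAC-6 with A9, far below CDKN2A beside it.

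MTAP was expressed in both lines. The MOLM-13 samples held 19.3, 16.4 and 15.1 TPM with DMSO and 15.4, 14.7 and 12.3 TPM with A9. The MONO-MAC-6 samples held 24.3, 40.8 and 43.7 TPM with DMSO and 42.8, 42.3 and 40.3 TPM with A9. Every MONO-MAC-6 sample was above every MOLM-13 sample, and the means over 6 samples were 39.0 and 15.5 TPM, a ratio of 2.52. Within each line the DMSO and A9 samples overlapped.

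The form of MTAP also differed between the lines. The 3 transcripts that end in the distal region (last exons within chr9:21930390-21937651) made up 0.523% ± 0.046 (SD, n = 3) of MTAP TPM in MOLM-13 under DMSO and 0.712% ± 0.039 (SD, n = 3) under A9. In MONO-MAC-6 they made up 4.93% ± 0.692 (SD, n = 3) under DMSO and 5.88% ± 0.669 (SD, n = 3) under A9. The lowest MONO-MAC-6 sample held 4.51% and the highest MOLM-13 sample 0.752%. The distal form MTAP-210, whose junction is printed above, averaged 0.0654 TPM in MOLM-13 and 1.49 TPM in MONO-MAC-6 with DMSO, and MTAP-214 averaged 3.25 and 7.30 TPM. The most abundant form was MTAP-202, annotated as a nonsense-mediated decay transcript, at 6.05 and 14.8 TPM. The distal transcripts of MOLM-13 summed to only 0.0891 TPM with DMSO. Transcripts that share exons are separated by estimation, so these shares are less certain than the gene's sum. The share of MTAP that ends on the side of CDKN2A was lower in every MOLM-13 sample than in any MONO-MAC-6 sample, and the remaining 10 transcripts end within chr9:21815433-21865971.

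**Figure D1:**
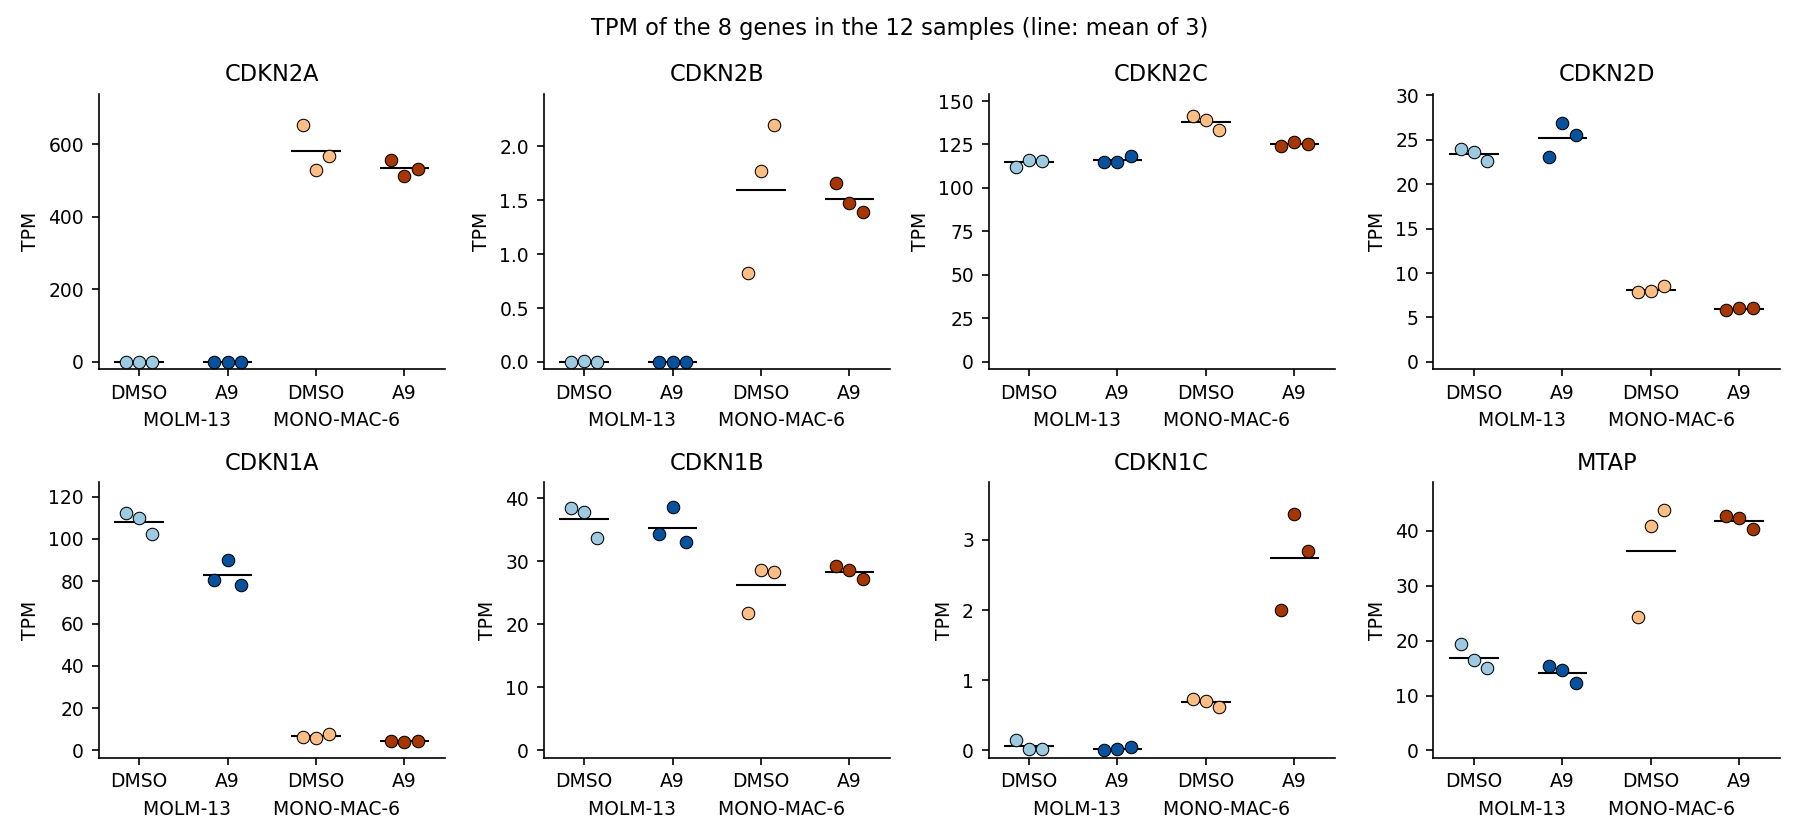
TPM of each of the 8 genes (y axis of each panel, starting near 0, with its own scale) in the 3 samples of each group (x axis), as points with a line at the mean. CDKN2A lies at 0 in MOLM-13 and between 512 and 653 TPM in MONO-MAC-6, CDKN1A is the reverse with 78.3 to 112 TPM in MOLM-13 and 3.83 to 7.60 TPM in MONO-MAC-6, and CDKN1C is higher with A9 in MONO-MAC-6.

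Along 9p21, the genes at or near 0 in MOLM-13 from CDKN2A onward (CDKN2A, CDKN2B, DMRTA1, ELAVL2 and IZUMO3) lay between MTAP and TUSC1, which were expressed in that line. Ahead of MTAP on the chromosome, KLHL9, an adaptor of a ubiquitin ligase, averaged 2.46 TPM in MOLM-13 with DMSO, and the interferon genes IFNB1, IFNA1 and IFNE averaged under 1 TPM in each group. DMRTA1, the next gene of the list after CDKN2B, was listed at 0 in all MOLM-13 samples and averaged 0.123 TPM with DMSO and 0.0797 TPM with A9 in MONO-MAC-6, a low level in both lines. ELAVL2, a neuronal RNA-binding protein gene, averaged 0.168 TPM in MONO-MAC-6 with DMSO, and IZUMO3 was listed at 0 in every sample. TUSC1, farther along, went the other way, at 3.52 TPM in MOLM-13 and 0.00410 TPM in MONO-MAC-6 with DMSO. CAAP1 averaged 27.9 and 19.7 TPM and IFT74, a gene of ciliary transport, 6.36 and 16.1 TPM in MOLM-13 and MONO-MAC-6 with DMSO.

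**Figure D2:**
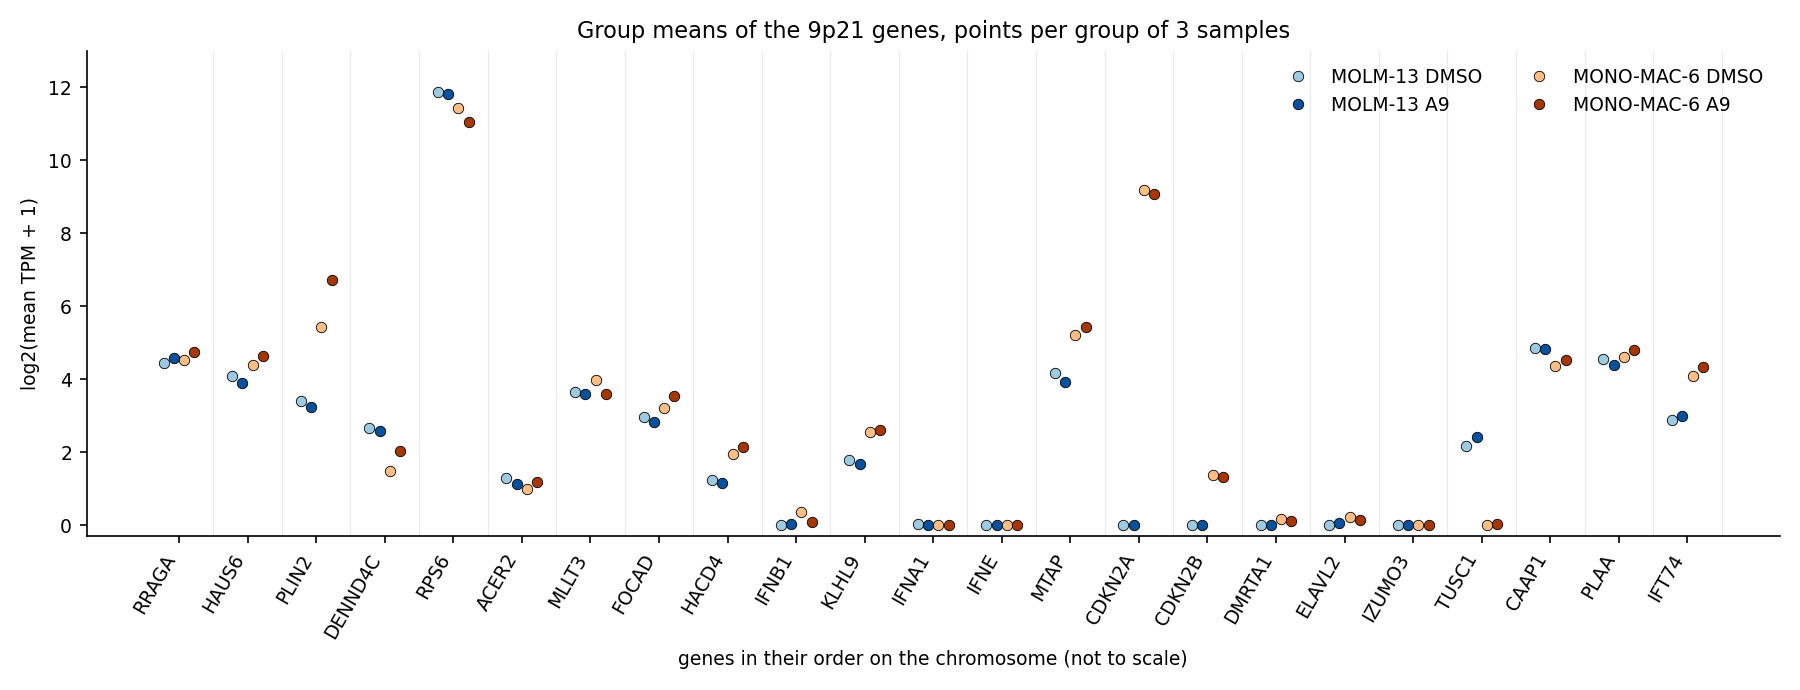
Mean TPM of each group on the scale log2(TPM + 1) (y axis) for MTAP, CDKN2A, CDKN2B and the listed neighbours on chromosome 9 with matched transcripts, not all of them in 9p21, in chromosome order (x axis, not to scale), with 1 point for each group of 3 samples. CDKN2A and CDKN2B are near the axis in MOLM-13, MTAP is above it in both lines, and PLIN2 is higher with A9 in MONO-MAC-6.

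Both first exons of CDKN2A were used in MONO-MAC-6. The 4 transcripts that begin in the downstream region (first exons within chr9:21974404-21975098, the side of p16INK4a) summed to 325 ± 49.2 TPM (SD, n = 3) under DMSO and, under A9, to 296 ± 18.5 TPM (SD, n = 3). The 5 transcripts that begin in the upstream region (chr9:21994139-21995301, the side of p14ARF) summed to 234 ± 17.6 TPM (SD, n = 3) under DMSO and, under A9, to 210 ± 7.65 TPM (SD, n = 3). The downstream share of CDKN2A was 55.5% with DMSO and 55.4% with A9, and the upstream share 40.1% and 39.4%. The downstream shares of the treatments lay closer than the samples of one treatment, in which this share ran from 53.5% to 58.0% with DMSO. CDKN2A-201 alone averaged 268 TPM and CDKN2A-214 135 TPM with DMSO, against 236 and 112 TPM with A9. A further 5 transcripts begin inside the gene and held 4.34% of its TPM with DMSO and 5.19% with A9. Transcripts that share exons are separated by estimation, so shares of single forms are less certain than the gene's sum.

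**Figure D3:**
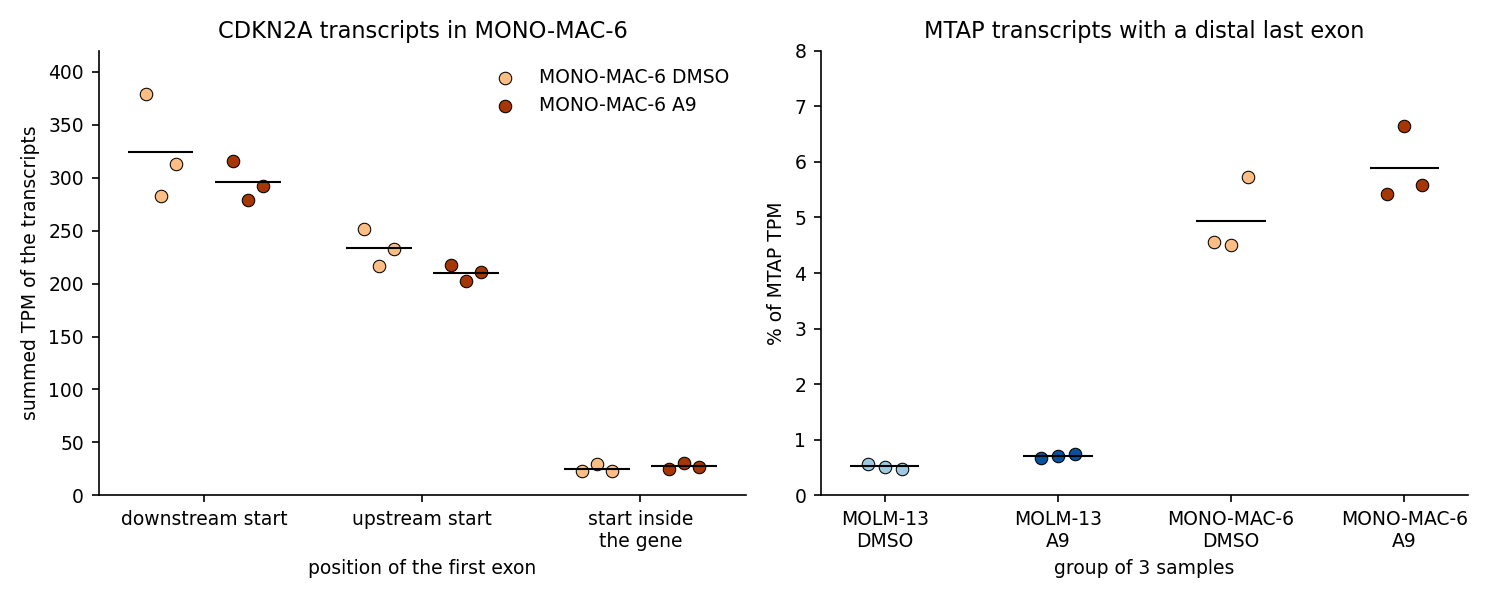
Left, summed TPM (y axis) of the CDKN2A transcripts of MONO-MAC-6 by position of the first exon (x axis), 3 samples for each treatment with a line at the mean. Right, the percent of MTAP TPM (y axis) in transcripts with a distal last exon for the 4 groups (x axis), where no MOLM-13 sample exceeds 0.752% and no MONO-MAC-6 sample is below 4.51%.

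CDKN2C, which encodes p18INK4c (plus strand, chr1:50960745-50974633), was the most evenly expressed INK4 gene. It measured 112, 116 and 116 TPM with DMSO and 115, 115 and 119 TPM with A9 in MOLM-13. In MONO-MAC-6 it measured 141, 139 and 133 TPM with DMSO and 124, 126 and 125 TPM with A9. It was the most abundant member in MOLM-13 and next to CDKN2A in MONO-MAC-6, where the A9 samples lay below all DMSO samples. CDKN2D, which encodes p19INK4d (minus strand, chr19:10566462-10569059), measured 23.96, 23.6 and 22.7 TPM with DMSO and 23.1, 26.9 and 25.5 TPM with A9 in MOLM-13. The MONO-MAC-6 values were 7.81, 7.97 and 8.53 TPM with DMSO and 5.88, 6.03 and 6.01 TPM with A9. The treatments overlapped in MOLM-13 and did not overlap in MONO-MAC-6, where A9 was the lower group.

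CDKN1A, which encodes p21 (plus strand, chr6:36676460-36687339), had the opposite order to CDKN2A. In MOLM-13 it measured 112, 110 and 102 TPM with DMSO and 80.4, 89.9 and 78.3 TPM with A9. In MONO-MAC-6 it measured 6.26, 6.05 and 7.60 TPM with DMSO and 4.55, 3.83 and 4.45 TPM with A9. The mean of the 6 MONO-MAC-6 samples was 5.46 TPM against 95.5 TPM in MOLM-13, a ratio of 0.0572. In both lines the A9 samples lay below all DMSO samples.

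CDKN1B, which encodes p27 (plus strand, chr12:12715058-12722371), measured 38.5, 37.8 and 33.8 TPM with DMSO and 34.3, 38.6 and 33.2 TPM with A9 in MOLM-13. Its values in MONO-MAC-6 were 21.8, 28.7 and 28.4 TPM with DMSO and 29.2, 28.6 and 27.2 TPM with A9. The treatments overlapped in each line. CDKN1C, which encodes p57, an imprinted inhibitor (minus strand, chr11:2883213-2885773), was near 0 in MOLM-13, with 0.142, 0.0158 and 0.0192 TPM with DMSO and 0.00295, 0.0176 and 0.0454 TPM with A9. In MONO-MAC-6 it measured 0.737, 0.711 and 0.626 TPM with DMSO and 1.995, 3.37 and 2.85 TPM with A9. All 3 A9 samples of MONO-MAC-6 lay above all 3 DMSO samples. Transcripts of the tables without a match in the annotation used here were left out, and whether any of them are copies of CDKN1C was not tested, so its low values in MOLM-13 cover the matched transcripts only.

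Between the lines, none of the 8 genes overlapped over 6 samples against 6. CDKN2A, CDKN2B, CDKN2C, CDKN1C and MTAP were the 5 that were higher in MONO-MAC-6, and CDKN1A, CDKN1B and CDKN2D the 3 that were lower. Of the 13417 genes compared, 46.3% also did not overlap. The INK4 genes of the DMSO samples summed to 138 ± 1.76 TPM (SD, n = 3) in MOLM-13, against 731 ± 64.9 TPM (SD, n = 3) for MONO-MAC-6. The CIP/KIP genes summed to 145 ± 7.85 TPM (SD, n = 3) and 33.6 ± 4.21 TPM (SD, n = 3). The order of the levels in MOLM-13 with DMSO was CDKN2C, CDKN1A, CDKN1B, CDKN2D, MTAP, CDKN1C, CDKN2B and CDKN2A, and only the last pair overlapped between neighbours. In MONO-MAC-6 with DMSO the order was CDKN2A, CDKN2C, MTAP, CDKN1B, CDKN2D, CDKN1A, CDKN2B and CDKN1C, in which only MTAP and CDKN1B overlapped between neighbours.

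A9 was compared with DMSO by limma on log2(TPM + 1), a scale on which a change of a low gene is understated, with Benjamini-Hochberg adjustment over all genes tested. Each line was fitted by itself, over the genes whose DMSO or A9 mean reached 1 TPM. In MOLM-13, 5 of the 8 members passed that filter, since CDKN2A, CDKN2B and CDKN1C did not reach it, and 0 of the 5 were called, against 0.121% of all 11602 genes. By limma, 1 of the 5 had an unadjusted p under 0.05. That gene was CDKN1A, with a log2 difference of -0.38 (SE 0.077, 95% interval -0.57 to -0.20, adjusted p = 0.174). It was also the 1 member whose groups did not overlap, against 15% of all genes. The 4 others had log2 differences of -0.052 for CDKN1B (limma adjusted p = 0.902), 0.018 for CDKN2C (0.940), 0.098 for CDKN2D (0.870) and -0.24 for MTAP (0.771). The median of the 5 was -0.052, beside -0.046 over all genes tested.

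In MONO-MAC-6 all 8 members passed the filter and 1 was called, against 3.36% of all 12876 genes. This was CDKN1C, which rose with a log2 difference of 1.13 (SE 0.16, 95% interval 0.74 to 1.52, limma adjusted p = 0.0204). Of the 8, 3 had an unadjusted p under 0.05 by limma, and 4 did not overlap between treatments (CDKN1C above, CDKN1A, CDKN2C and CDKN2D below), against 37.9% of all genes. The call on CDKN1C was lost in 4 of the 6 fits that left out 1 sample: adjusted p by limma was 0.0888 without DMSO sample 2, 0.0692 without DMSO sample 3, 0.0956 without A9 sample 2 and 0.131 without A9 sample 3. Without the DMSO sample 1 that stood apart it was 0.00219, with a log2 difference of 1.15. CDKN1C passed only through the A9 group, whose mean reached 2.74 TPM while the DMSO mean was 0.691 TPM. With a pseudocount of 0.1 TPM in place of 1 TPM its log2 difference was 1.81.

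CDKN1A and CDKN2D did not pass the test in MONO-MAC-6 with every sample. CDKN1A differed by -0.53 (SE 0.14, 95% interval -0.86 to -0.20, limma adjusted p = 0.105) and CDKN2D by -0.38 (SE 0.11, 95% interval -0.65 to -0.12, limma adjusted p = 0.131), both on the log2 scale. Without DMSO sample 1, both passed, with differences of -0.56 for CDKN1A (limma adjusted p = 0.00969) and -0.41 for CDKN2D (0.00783). Each gene passed in only 1 of the 6 fits with 1 sample left out, and that sample had been singled out by its effect on the calls. Of the 8 alternatives that kept every sample, CDKN1A passed in 5 and CDKN2D in 3. Fits by the second number and by single library are among these 8 and do not take the sample as the unit. With the samples scaled to a common median ratio, CDKN1A differed by -0.67 (limma adjusted p = 0.0433) and CDKN2D by -0.53 (0.0556). In MOLM-13, CDKN1A passed in 3 of the 8 such alternatives and in 0 of the 6 fits with 1 sample left out. Among the 3 was the fit in which each sample's trend on transcript length was removed, with a limma adjusted p of 0.0496.

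The other members of MONO-MAC-6 were not called. CDKN2A differed by -0.12 on the log2 scale (95% interval -0.36 to 0.12, limma adjusted p = 0.473), CDKN2C by -0.14 (adjusted p = 0.296), CDKN2B by -0.013 (0.9754), CDKN1B by 0.11 (0.596) and MTAP by 0.24 (0.513). Without DMSO sample 1, which held the highest CDKN2A and the lowest CDKN2B, CDKN1B and MTAP of the DMSO samples, the differences were -0.039 for CDKN2A, -0.12 for CDKN2C, -0.25 for CDKN2B, -0.010 for CDKN1B and -0.015 for MTAP, with limma adjusted p from 0.0699 to 0.916. CDKN1B and MTAP thus turned in direction without that sample. With median-ratio scaling the differences were -0.28 for CDKN2A, -0.30 for CDKN2C, -0.093 for CDKN2B, -0.041 for CDKN1B and 0.087 for MTAP, so CDKN1B turned there too, and none of the 5 passed. CDKN2B kept its direction in only 3 of the 6 fits with 1 sample left out. The fits in which it changed sign included those without DMSO sample 2 (0.053) and without DMSO sample 3 (0.16). With libraries averaged by the second number, CDKN2A, CDKN2C, CDKN1B and MTAP passed, at limma adjusted p of 8.89e-06, 0.000128, 0.0105 and 0.000751. Each such average holds a library of every sample of its group, so the spread between samples is averaged out. These p-values measure the spread between libraries of the same samples and are no support for a response to A9. The median over the 8 members was -0.068, beside 0.16 over all genes tested.

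**Figure D4:**
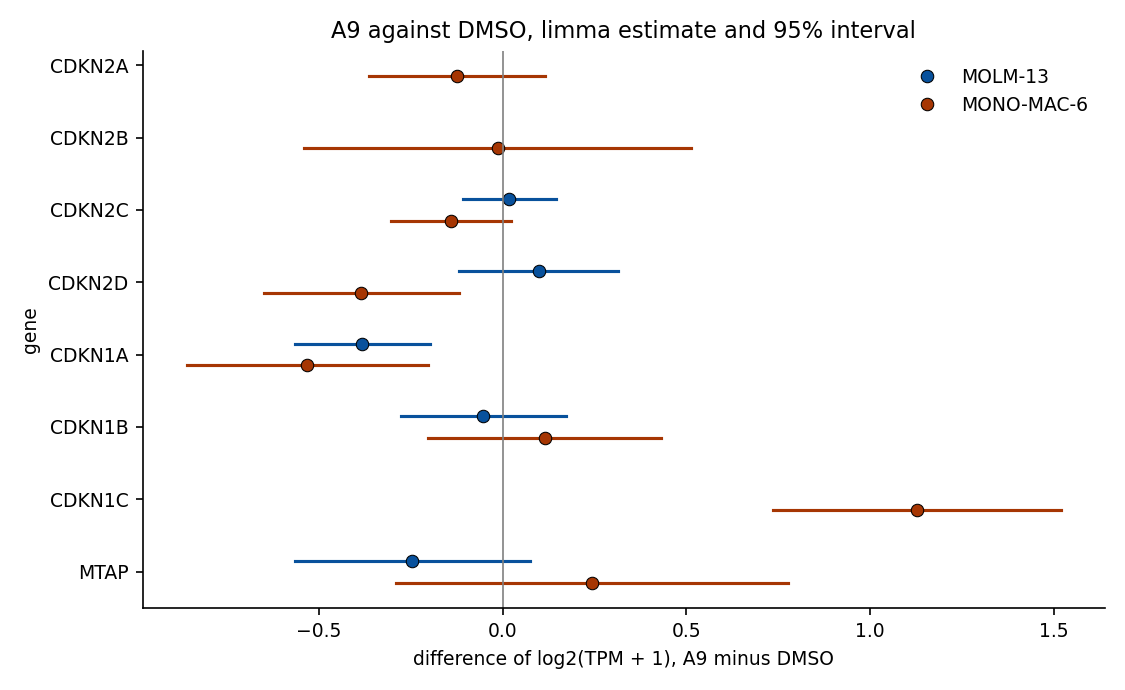
Difference of log2(TPM + 1), A9 minus DMSO (x axis), for each gene (y axis) in MOLM-13 and MONO-MAC-6, as limma's estimate with its 95% interval. CDKN1C in MONO-MAC-6 lies at 1.13, CDKN1A lies below 0 in both lines, and genes under the filter in MOLM-13 have no point there.

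The difference of the A9 effect between the lines, tested as an interaction, was called for CDKN1C alone among the 8, against 2.99% of all 13417 genes. CDKN1C differed by 1.18 on the log2 scale (95% interval 0.79 to 1.57, limma adjusted p = 0.00515), and it passed the filter only through the A9 samples of MONO-MAC-6. Since it was near 0 in MOLM-13, a line that responds differently and a line that does not express the gene cannot be told apart. CDKN2D had -0.48 (limma adjusted p = 0.0585). It passed in 5 of the 8 alternatives that kept every sample, among them median-ratio scaling (-0.67, 0.0418), and in 1 of the 12 fits with 1 sample left out, the one without MONO-MAC-6 DMSO sample 1 (0.0363). Fits by the second number and by single library are among the 8 and do not take the sample as the unit. CDKN1A had -0.15 (95% interval -0.47 to 0.17, limma adjusted p = 0.517).

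Single transcripts of the members were not called in either line. In MOLM-13, 15 passed the filter and 0 were called by limma, against 0.00982% of 40728 transcripts, and 5 had an unadjusted p under 0.05. For MONO-MAC-6, 28 passed and 0 were called by limma, against 0.406% of 48474 transcripts, with 8 at an unadjusted p under 0.05. The main p21 transcript, CDKN1A-201, averaged 96.5 TPM with DMSO and 73.2 TPM with A9 in MOLM-13, and 6.15 and 3.65 TPM in MONO-MAC-6. In MONO-MAC-6, CDKN2D-202 averaged 4.26 ± 0.167 TPM (SD, n = 3) under DMSO and, under A9, 2.39 ± 0.204 TPM (SD, n = 3), while CDKN2D-201 averaged 3.84 and 3.58 TPM. CDKN2C-202 was 45.7% of CDKN2C with DMSO and 33.1% with A9 in that line, and CDKN2C-203 was 48.5% and 63.1%. In MONO-MAC-6, the adjusted p by limma was 0.169 for CDKN2D-202, 0.211 for CDKN2C-202 and 0.356 for CDKN2C-203.

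The partners and regulators of these inhibitors were followed as lists. The list of 22 9p21 neighbours reaches along chromosome 9 well beyond MTAP and CDKN2A, and not all of its genes lie in that band. Of these, 0 of the 14 tested in MOLM-13 were called by limma (0 at an unadjusted p under 0.05), and 1 of the 13 tested in MONO-MAC-6 was (4 at an unadjusted p under 0.05, 2 higher and 2 lower). This was PLIN2, a coat protein of lipid droplets, which rose from 41.8 to 104 TPM (log2 difference 1.28, limma adjusted p = 0.00321). PLIN2 lies at chr9:19108375-19149290, far ahead of MTAP, which starts at 21802543, so its rise is not a result about the 9p21 locus. Among 13 CDKs and cyclins, 0 of 12 were called in MOLM-13 (1 at an unadjusted p under 0.05) and 1 of 11 in MONO-MAC-6 (2 unadjusted, both lower), where the D-type cyclin gene CCND3 fell from 137 to 85.3 TPM (log2 difference -0.67, limma adjusted p = 0.0283). Of 13 RB and E2F genes, 0 of 13 were called in either line by limma, and at an unadjusted p under 0.05 there were 0 in MOLM-13 but 1 in MONO-MAC-6.

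Of 24 regulators of the members, 0 of 24 were called in MOLM-13 (0 at an unadjusted p under 0.05 by limma), against 0.121% of all genes. For MONO-MAC-6, 1 of 23 was called (8 unadjusted, 6 higher and 2 lower), against 3.36% of all genes. This was the transcription factor gene KLF4, which rose from 4.21 to 9.004 TPM (log2 difference 0.95, limma adjusted p = 0.0213). Of 24 p53 targets, 0 of 22 were called in MOLM-13 (4 at an unadjusted p under 0.05 by limma, all lower) and 2 of 23 in MONO-MAC-6 (6 unadjusted, 5 higher and 1 lower). BTG2, an antiproliferative gene, had a log2 difference of 1.59 (limma adjusted p = 0.00912) and TP53I3, which encodes a quinone oxidoreductase, one of 0.97 (0.0174). In the same line the p53 target CDKN1A was lower with A9 in every sample but was not called. Over the 23 targets tested there, differences were positive for 14 and negative for 9. Their median was 0.18, beside 0.16 over all genes tested. A part of p53 in these differences was not tested.

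Of 24 E2F targets and proliferation genes, 0 of 24 were called in MOLM-13 (1 at an unadjusted p under 0.05 by limma), against 0.121% of all genes. For MONO-MAC-6, 1 of 24 was called (2 unadjusted, both lower), against 3.36% of all genes. This was TYMS, the thymidylate synthase gene, which fell by 0.43 on the log2 scale (limma adjusted p = 0.0389). Of 20 genes of methionine salvage, polyamines and PRMT5, the setting in which MTAP works, 0 of 19 were called in MOLM-13 (3 at an unadjusted p under 0.05 by limma) and 1 of 20 in MONO-MAC-6 (3 unadjusted, 2 higher and 1 lower). This was SAT1, which encodes a polyamine acetyltransferase and rose from 57.5 to 119 TPM (log2 difference 1.04, limma adjusted p = 0.0109).

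Marker genes moved in the same samples as CDKN1C in MONO-MAC-6. The 12 monocytic and myeloid markers summed to between 3796 and 4738 TPM with DMSO and between 8657 and 8922 TPM with A9. Most of each sum and of its rise was LYZ, which averaged 3413 TPM with DMSO and 7681 TPM with A9. Of the 11 tested, 4 were called, all higher, against 3.36% of all genes in either direction. They were CD14, CD68, LYZ and ANPEP, with log2 differences of 1.77, 1.72, 1.17 and 1.32. Differences of the 11 were positive for 9 and negative for 2, with a median of 0.59 beside 0.16 over all genes tested. MPO averaged 51.9 and 37.7 TPM and FLT3 764 and 650 TPM with DMSO and A9. In MOLM-13 the sums were 411 to 504 TPM with DMSO and 609 to 722 TPM with A9. There 1 of the 10 tested was called, against 0.121% of all genes. It was the lysozyme gene LYZ, which was higher by 1.29 and averaged 133 and 327 TPM. At an unadjusted p under 0.05 by limma, 3 of the 10 were higher and 1 lower. The 19 markers of other cell types summed to between 72.5 and 152 TPM with DMSO and between 212 and 235 TPM with A9 in MONO-MAC-6, mostly from PECAM1, which monocytes also express. Of the 5 tested there 1 was called, against 3.36% of all genes. It was KRT18, which fell by 0.78 on the log2 scale. All 5 had an unadjusted p under 0.05 by limma, 4 lower and 1 higher. In MOLM-13 the sums were 19.8 to 33.7 TPM and 18.4 to 35.7 TPM, and 0 of the 4 tested were called by limma, with 1 at an unadjusted p under 0.05. The part of the marker genes in the CDKN1C result was not tested.

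Levels of some partners also differed between the lines, and the following were picked after their values were seen. RB1, the substrate that INK4 proteins protect, averaged 36.1 TPM with DMSO in MOLM-13 and 4.198 TPM in MONO-MAC-6. CCND2 averaged 4.36 TPM in MOLM-13 and 0.000784 TPM in MONO-MAC-6, and MDM2, a p53 ligase and p53 target, 32.8 and 9.49 TPM. CDK4 averaged 326 and 253 TPM and CDK6 33.8 and 26.7 TPM, so RNA of the kinases that INK4 proteins bind was measured in both lines.

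Promoter windows from RefSeq (GRCh38.p14), from 250 bases before to 50 bases after a gene's start, were found for 7 of the 8 members, 10 windows in all. A GC box, searched as GGGCGG on both strands, occurred in 8 of the 10, and in 45.0% of all 35116 windows of that length. A motif of NF-kappaB, the pathway downstream of the IKK kinases, occurred in 1 of the 10, the MTAP window, and in 5.91% of all windows. A match describes letters in a window and is not a binding site.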

How the data were processed

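RNA of 36 libraries, 9 in each of 4 groups, was sequenced. The values are TPM of 207175 transcripts in a table for each line, as the authors deposited them, and the submitters' processing notes name kallisto, limma and GRCh38 without versions or roles. The annotation used for those values is not given in the sources used here. Transcripts were matched by identifier to GENCODE 29 (162561 transcripts, 78.5%, in 35490 genes, holding 89.9% to 91.4% of a library's TPM) and summed by symbol. CDKN2B-AS1, MIR31HG and MTAP-201 were not used here.

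The 3 libraries that share line, treatment and the first number were averaged. The spread between such libraries (median SD of log2 TPM 0.0583 in MOLM-13, 0.0613 in MONO-MAC-6) was smaller than between libraries that share the second number (0.161 and 0.133). Log2(TPM + 1) was fitted with limma 3.58.1 (R 4.3.3, trend and robust options, two-sided) over genes or transcripts whose mean reached 1 TPM under DMSO or A9, at a Benjamini-Hochberg threshold of 0.05. The fit was tested on simulated data. An exact permutation test of 3 samples against 3 cannot go below p = 0.1 and was not used. Sums and figures were made with Python 3.11.15 and pandas 2.3.3.

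All 8 members were named. Of the 9p21 neighbours any gene could be named with its levels, and of the other lists those past the threshold. The members and lists were chosen with earlier results of these data known. Alternatives changed the pseudocount, the filter, the sample unit, the block, the scaling, the length trend, the transcripts summed and the samples included. The genes most like CDKN2A in profile are not reported here.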

Additional observations from a re-analysis of the deposited data

Results flagged for a closer look

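The response of CDKN1C to A9 differed between the lines by a test of the difference itself. The log2 difference between A9 and DMSO was larger in MONO-MAC-6 than in MOLM-13 by 1.18 (interaction in limma, adjusted p = 0.00515), and every A9 sample of MONO-MAC-6 was above every DMSO sample of that line. CDKN1C reached the filter of 1 TPM only through the A9 samples of MONO-MAC-6, the group in which it was high, so that passing the test was tied to that group and is not independent support. In MOLM-13 the matched transcripts of the gene were listed at 0 in 4 of 9 DMSO libraries and 6 of 9 A9 libraries. Unmatched transcripts were not used here. The difference had an adjusted p under 0.05 in all 8 alternatives that kept every sample and in all 12 fits with 1 sample left out, where the adjusted p ran from 5.09e-10 to 0.0380 and from 0.000707 to 0.0209 by limma. All of these fits but the one with no filter used the same filter. Among the 8, the fits by the second number and by library do not take the sample as the unit. These fits are therefore not independent support either.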

How the results depend on the processing

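Across 21 results on single members and 342 alternatives, 0 reversed a call, 34 gained one and 5 lost one. The gains include fits with libraries averaged by the second number, which do not take the sample as the unit. All 5 concern CDKN1C in MONO-MAC-6: 4 of the 6 fits without 1 sample, and the fit with a replicate block on the first number, in which its limma adjusted p was 0.0888. Same-numbered samples did not deviate together in every pair (correlations 0.388, -0.077 and 0.690 in MOLM-13 and -0.036, 0.1002 and -0.110 in MONO-MAC-6), so the numbers were not taken to pair the samples. Of 14 genes called in MOLM-13, the count was 4 with no filter, 5439 with libraries averaged by the second number, 1741 with each library as its own sample, 87 with the replicate block, 48 with median-ratio scaling, 177 with the length trend removed, and 2 to 8 without 1 sample. Of 433 genes in MONO-MAC-6 the counts were 254, 8705, 5586 and 94 for the first 4 of these, 1195 with the length trend removed, and 59 to 3205 without 1 sample, the highest without DMSO sample 1. For the difference between the lines, 401 genes became 8507 by the second number, 5620 by library, 207 with the replicate block, 741 with the length trend removed, and 197 to 549 without 1 sample. The 4 transcripts called in MOLM-13 became 0 with no filter, 2 with the replicate block, and 0 to 2 without 1 sample. The 197 in MONO-MAC-6 became 10, 0, and 0 to 1590. Counts by the second number and by library do not take the sample as the unit, since they treat libraries of the same samples as replicates. Libraries of a sample differed little (median SD of log2 TPM 0.0583 in MOLM-13, 0.0613 in MONO-MAC-6), so those counts are not read as a response to A9. The cause of the other changes in count was not tested. Of the genes called in MONO-MAC-6, 323 were higher and 110 lower, against 352 and 210 with scaling and 636 and 559 with the length trend removed. For the difference between the lines these splits were 258 and 143, 288 and 222, and 337 and 404. Depth is unknown, so precision at low TPM, as for CDKN2B and CDKN1C, cannot be given.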

Other observations

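Within MONO-MAC-6, the genes whose profile over 6 samples was most like that of CDKN1C, by the root mean square difference of centred log2(TPM + 1) among 9289 genes with a mean of 5 TPM or more, were HSD17B14, AKR1C3, PLIN2, PRAM1 and FERMT3, with differences of 0.0848 to 0.126. HSD17B14, a hydroxysteroid dehydrogenase gene, averaged 4.02 TPM with DMSO and 11.04 TPM with A9. Within MOLM-13, the genes most like CDKN1A over 6 samples, among 8579 genes, were METTL9, ZNRF1, LRG1, ECM1 and SESN1, with differences of 0.0305 to 0.0536. SESN1, a p53-responsive gene, averaged 21.5 TPM with DMSO and 16.1 TPM with A9.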
